A study of Mus musculus with 6 samples.

Results

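The genes described here encode parts of fibroblast growth factor (FGF) signalling: the ligands Fgf3, Fgf8, Fgf15, Fgf17 and Fgf18, the receptor Fgfr1, and the feedback genes and readouts Spry4, Dusp6, Etv4 and Etv5. They were found by their symbol in a table of 21877 gene symbols, and all 10 had a row. Their transcripts were read by RNA sequencing of mouse embryos at a labelled age of embryonic day 7.5. The series holds 3 libraries of the wild-type genotype (WT) and 3 of the Rnf111 S254D knock-in (KI). Rnf111 is a ubiquitin ligase that strengthens responses to Nodal and other TGF-beta ligands, and the comparison asks which transcript levels differ with the mutant allele. The sources used here give no zygosity, sex, strain or litter, nor the number of embryos in a library. The p-values therefore refer to the spread between libraries, part of which may be technical.

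FGF ligands are secreted proteins that bind receptor tyrosine kinases together with heparan sulphate, and the receptors signal through Ras and a kinase cascade that ends in the kinase ERK. ERK activity switches on transcription of Dusp6, Spry4, Etv4 and Etv5, which are widely used as readouts of the pathway. In the mouse gastrula, Fgf8 and Fgfr1 are needed for mesoderm cells to leave the primitive streak, and somewhat later FGFs are made in the tail bud, the pharyngeal region and the boundary between midbrain and hindbrain.

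Of the feedback genes, Dusp6 and Etv5 are shown with the 250 bases upstream of an annotated start site, because ERK acts on such genes in part through ETS factors, whose recognition core is GGAA. Sequences are from RefSeq on the build GRCm38.p6, which is not the build of the expression table. The capitals mark CGGAA, or TTCCG where the match is on the other strand. The Dusp6 sequence lies at chr10:99262981-99263230 on the plus strand, and the Etv5 sequence at chr16:22439571-22439820 on the minus strand.
Dusp6: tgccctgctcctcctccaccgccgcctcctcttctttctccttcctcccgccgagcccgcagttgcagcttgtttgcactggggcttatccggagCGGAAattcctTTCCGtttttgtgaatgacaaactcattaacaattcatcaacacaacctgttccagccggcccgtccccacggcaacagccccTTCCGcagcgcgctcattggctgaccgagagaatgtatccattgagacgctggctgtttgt
Etv5: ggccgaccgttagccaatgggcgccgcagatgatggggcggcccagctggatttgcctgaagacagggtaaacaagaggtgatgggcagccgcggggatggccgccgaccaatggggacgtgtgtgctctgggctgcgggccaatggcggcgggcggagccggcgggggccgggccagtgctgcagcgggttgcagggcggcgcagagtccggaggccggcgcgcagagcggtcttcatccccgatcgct
The Dusp6 window held 3 matches and the Etv5 window 0. Over all 32851 promoter windows of 250 bases, 25.2% held at least 1 match, with overlaps between strands counted separately. The longer ETS core CCGGAAGT, with ACTTCCGG as its other strand, was in neither window and in 2.88% of all windows. RefSeq windows were also matched for Fgf3 and Fgf18, with 0 matches each to CGGAA. A second Etv5 window, not shown, also held 0 matches. Windows of 4 of the 10 genes were examined in this way, and those of the other genes, among them the feedback genes Spry4 and Etv4, were not. Spry4 was left out by choice, so its absence here says nothing about matches upstream of it. These are matches of letters, and no binding was measured.

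The values were RPKM, which divides the reads of a gene by its exon length and by the depth of the library, at depths of about 9763000 to 13560000 reads. The 10 genes had between 12 reads (Fgf18 in WT 3) and 1851 reads (Dusp6 in WT 1). Differences between libraries did not mainly follow genotype: WT 3 lay apart from the rest on the first principal component, with 61.5% of the variance, and KI 2 on the second, with 25.1%. WT 3 had 8912 genes at 1 RPKM or more, against 9738 to 10148 in the other 5 libraries. Summed log2(RPKM + 1) over 17 markers of visceral and yolk sac endoderm (Rbp4 and Apoa1 the highest, Apoc2 at 0 throughout) was 18.7 in KI 2 and 59.7 to 70.7 elsewhere. Over 15 cardiac markers (Myl7 and Actc1 the highest) it was 29.9 in KI 2 and 46.0 to 51.5 elsewhere. Over 4 Y-linked genes (Ddx3y and Eif2s3y the highest) it was 12.8 to 14.5 in the 3 WT libraries and 5.5, 13.5 and 0 in KI 1, 2 and 3. Of 8 epiblast markers 4 were tested, the highest being Dnmt3b at 8.32 to 12.6 RPKM and Sox2 at 5.07 to 15.6. The untested ones, Pou5f1, Nanog, Utf1 and Fgf5, did not exceed 0.0386, 0.268, 1.1 and 0.347 RPKM. The primitive erythroid globins Hba-x and Hbb-bh1 stood at 784 and 683 RPKM or more in every library. Of 12 trophoblast markers 2 were tested, Hand1 at 1.8 to 6.18 RPKM and Tfap2c at 0.942 to 2.6. Hand1 is also counted among the 15 cardiac markers, so its level is not particular to trophoblast. Of 12 markers of the maternal decidua 4 were tested, the highest being Des at 1.67 to 7.42 and Alpl at 1.81 to 3.73. The trophoblast markers Prl3d1, Prl2c2, Tpbpa and Ctsq were listed at 0 in all 6 libraries, and so were the decidual granzyme genes Gzmd, Gzme, Gzmf and Gzmg.

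None of the 10 genes differed between KI and WT past the threshold, and their most regular feature was a low level in WT 3. That library was also the lowest for 51.9% of all tested genes. In the limma fit, with Benjamini-Hochberg adjustment over 10104 genes, every one of the 10 had an adjusted p of 0.999. Among all tested genes 0.00% passed at an adjusted p under 0.05 and 1.20% had an unadjusted p under 0.05. Of the 10 genes 0 had an unadjusted p under 0.05, and the lowest was 0.129, for Fgf18.

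Fgf8 is the ligand most closely tied to the primitive streak and was above the 1 RPKM minimum in all 6 libraries. WT 1, 2 and 3 had 8.01, 8.30 and 1.91 RPKM, from 144, 142 and 35 reads, and KI 1, 2 and 3 had 9.14, 7.89 and 9.57 RPKM, from 142, 104 and 149 reads. The WT 3 value stood alone, and the other 5 lay between 7.89 and 9.57. Its exact 95% Poisson interval of 1.33 to 2.66 RPKM, which covers counting error only, did not reach the interval of any other library. The means were 6.07 ± 3.61 in WT and 8.87 ± 0.87 in KI (SD, n = 3 each). The KI minus WT difference was 0.66 on the log2(RPKM + 1) scale, with SE 0.44 and a 95% interval of -0.38 to 1.69. Without WT 3 it was 0.10. In bulk samples such as these, fewer cells of a type and less RNA per cell cannot be told apart.

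Fgf17 belongs to the same subfamily as Fgf8 and had the highest mean RPKM of the ligands over the 6 libraries. It was at 11, 11.5 and 4.54 in WT 1, 2 and 3 and at 11.9, 15.0 and 10.2 in KI 1, 2 and 3. WT 3 was again lowest and KI 2 highest, and the ranges of the groups overlapped. The log2 difference was 0.49 (SE 0.34, 95% interval -0.30 to 1.29), and 0.11 without WT 3. Without both WT 3 and KI 2 it turned to -0.02.

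Fgf18, the remaining ligand of that subfamily, was the least abundant of the 5. It was at 0.822, 1.99 and 0.746 RPKM in WT 1, 2 and 3, from 13, 30 and 12 reads, and at 1.39, 3.71 and 1.68 in KI 1, 2 and 3, from 19, 43 and 23 reads. KI 2 stood above the rest, with a counting interval of 2.69 to 5 RPKM that still overlapped that of WT 2 (1.35 to 2.85). The log2 difference was 0.55 (SE 0.32, 95% interval -0.21 to 1.32), on a scale that understates changes of genes this low. Without KI 2 it was 0.26, and it was 0.88 with a pseudocount of 0.1 and 0.91 with limma-voom on the recovered reads.

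In KI 2, the library with high Fgf17 and Fgf18, the summed level of anterior neural and isthmus markers was also the highest of the 6 libraries. Fgf17 stood 0.41 and Fgf18 0.90 above the mean of KI 1 and KI 3 on the log2 scale, and 91.5% and 99.1% of tested genes had a lower value of this difference. Fgf8, of the same subfamily, was not high in KI 2. It differed by -0.22, and 35.3% of tested genes had a lower value. Of 14 anterior neural and isthmus markers 6 were tested, with Hesx1 and Otx2 the highest. Over all 14, summed log2(RPKM + 1) reached 20.4 in KI 2, compared with 17.2 for KI 1, 13.8 for KI 3 and a range of 13.3 to 14.1 over WT. Single markers varied: Otx2 was highest in KI 2, at 10.8 RPKM against 3.63 to 7.45 elsewhere, while Hesx1 was at 4.19 in KI 2 and highest in WT 3, at 17.6. The part of these markers in the levels of Fgf17 and Fgf18 was not tested.

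Fgf15, a ligand of the developing neural tube and later of the gut, was the steadiest ligand across 5 libraries. It stood at 8.91, 8.93 and 5.19 RPKM in WT 1, 2 and 3, and at 8.16, 8.34 and 8.71 in KI 1, 2 and 3. Apart from WT 3, the 3 KI values lay just below the WT values. The log2 difference was 0.15 (SE 0.23, 95% interval -0.39 to 0.69) and turned to -0.08 without WT 3. It was 0.26 without WT 1 and likewise without WT 2. The spans of annotated antisense genes overlap those of Fgf15 and Fgfr1, and miscellaneous RNA genes on the opposite strand overlap the span of Spry4. Overlap of exons was not checked. No source used here gives the use of strand, so reads from any shared stretch of exon cannot be told apart.

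Fgf3, which acts in the caudal embryo and the hindbrain, was highest in KI 3. WT 1, 2 and 3 had 2.07, 2.58 and 1.27 RPKM, and KI 1, 2 and 3 had 1.87, 2.51 and 4.40. The KI 3 value rests on 118 reads, against 40 to 76 in the other libraries. KI 1 lay below both WT 1 and WT 2, so the groups overlapped. The log2 difference was 0.38 (SE 0.29, 95% interval -0.30 to 1.05). It was 0.19 without WT 3, 0.12 without KI 3 and 0.58 without KI 1.

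Fgfr1, the main FGF receptor of the epiblast and early mesoderm, was the only one of the 10 genes whose groups did not overlap. It was at 3.65, 3.57 and 1.75 RPKM in WT 1, 2 and 3 and at 4.18, 3.96 and 3.67 in KI 1, 2 and 3. The lowest KI value lay just above the highest WT value, and WT 3 lay far below both. Non-overlapping groups were seen in 6.54% of all tested genes, 3.80% with KI higher and 2.74% with KI lower, so 1 of 10 is near the background. The means were 2.99 ± 1.08 in WT and 3.94 ± 0.26 in KI (SD, n = 3 each), a log2 difference of 0.35 (SE 0.24, 95% interval -0.22 to 0.92). It was 0.10 without WT 3.

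**Figure D1:**
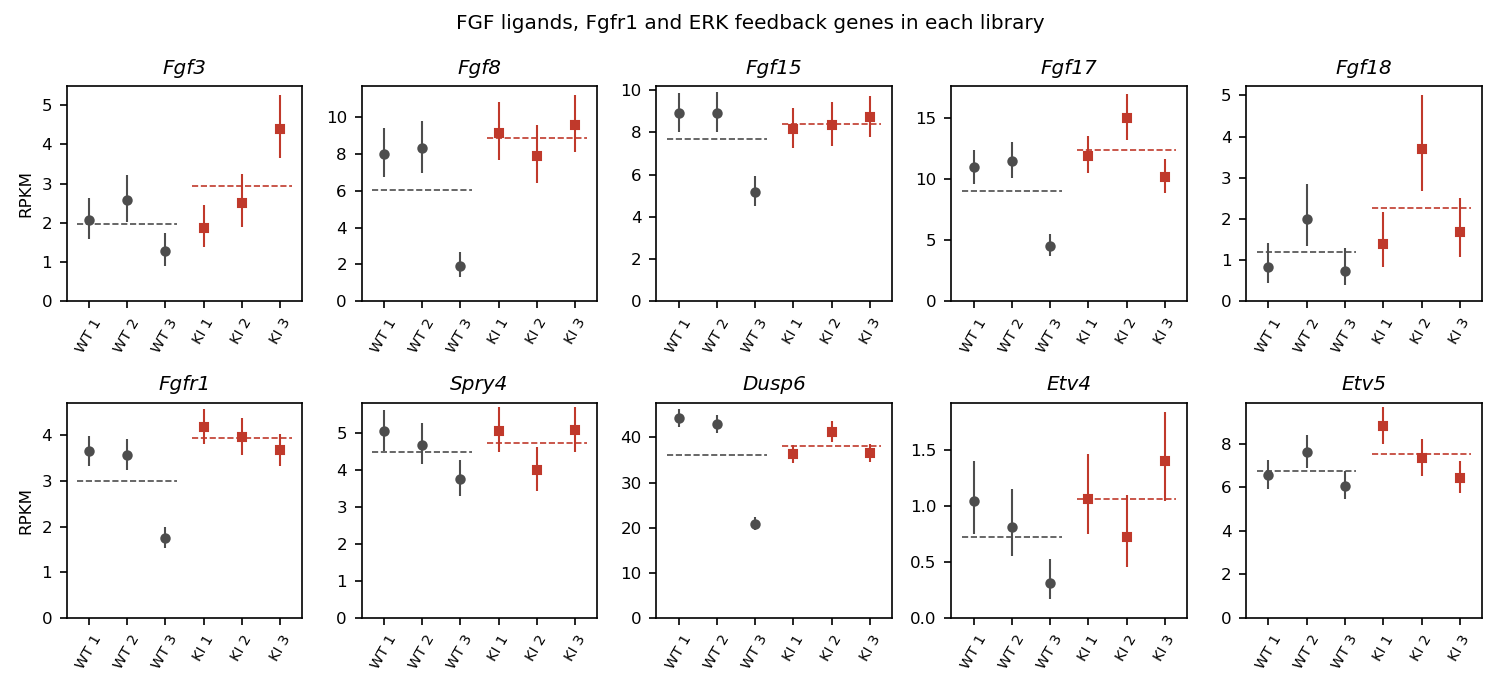
RPKM of each gene in each library, with WT as grey circles and KI as red squares, bars for the exact 95% Poisson interval of the reads and dashed lines for the group means. Fgf8 in WT 3 is at 1.91 against 7.89 to 9.57 in the other 5 libraries. Every gene shown has its lowest value in WT 3, as do 51.9% of all tested genes.

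Dusp6, a phosphatase that inactivates ERK and is itself induced by ERK, was the most abundant of the 10 genes. It was at 44.4, 42.9 and 20.9 RPKM in WT 1, 2 and 3, and at 36.3, 41.3 and 36.6 in KI 1, 2 and 3. All 3 KI values lay below WT 1 and WT 2 and above WT 3. The means of 36.0 ± 13.1 in WT and 38.1 ± 2.79 in KI (SD, n = 3 each) differed by less than the spread in WT. The log2 difference was 0.15 (SE 0.29, 95% interval -0.53 to 0.82). Its direction rests on WT 3: without that library it was -0.19 (SE 0.11, limma adjusted p = 0.957), and without both WT 3 and KI 2 it was -0.25 (SE 0.07, limma adjusted p = 0.236). In the latter 4 libraries the 4 Y-linked genes summed to log2 levels of 12.8 and 13 for the WT pair but 5.5 and 0 for the KI pair, and genotype and sex cannot be told apart there.

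Spry4, a cytoplasmic inhibitor of receptor signalling to Ras, varied little. It stood at 5.07, 4.69 and 3.77 RPKM in WT 1, 2 and 3, and at 5.08, 4.01 and 5.09 in KI 1, 2 and 3. WT 3 and KI 2 were the low libraries, a single one in each genotype. The log2 difference of 0.06 (SE 0.19, 95% interval -0.39 to 0.50) was smaller than the spread between replicates, and it turned to -0.02 with TMM scaling and with quantile normalization.

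Etv5 and Etv4 encode closely related ETS transcription factors of the PEA3 group. Etv5 was at 6.57, 7.61 and 6.09 RPKM in WT 1, 2 and 3 and at 8.81, 7.36 and 6.45 in KI 1, 2 and 3. The groups overlapped, and the log2 difference was 0.13 (SE 0.19, 95% interval -0.31 to 0.58). Over single left-out libraries it ran from 0.03 without KI 1 to 0.23 without KI 3, with 0.07 without WT 3. Etv4 was the least abundant of the 10 genes, at 1.04, 0.813 and 0.309 RPKM in WT 1, 2 and 3 and at 1.06, 0.726 and 1.40 in KI 1, 2 and 3. It reached the minimum of 1 RPKM in just 3 libraries, the fewest that the test allowed, and had 13 reads in WT 3. Its log2 difference was 0.27 (SE 0.22, 95% interval -0.25 to 0.80), again on a scale that understates changes of low genes. It was 0.09 without WT 3, 0.16 without KI 3 and 0.41 without WT 1, and it was 0.59 with a pseudocount of 0.1 and 0.69 with limma-voom on the recovered reads.

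**Figure D2:**
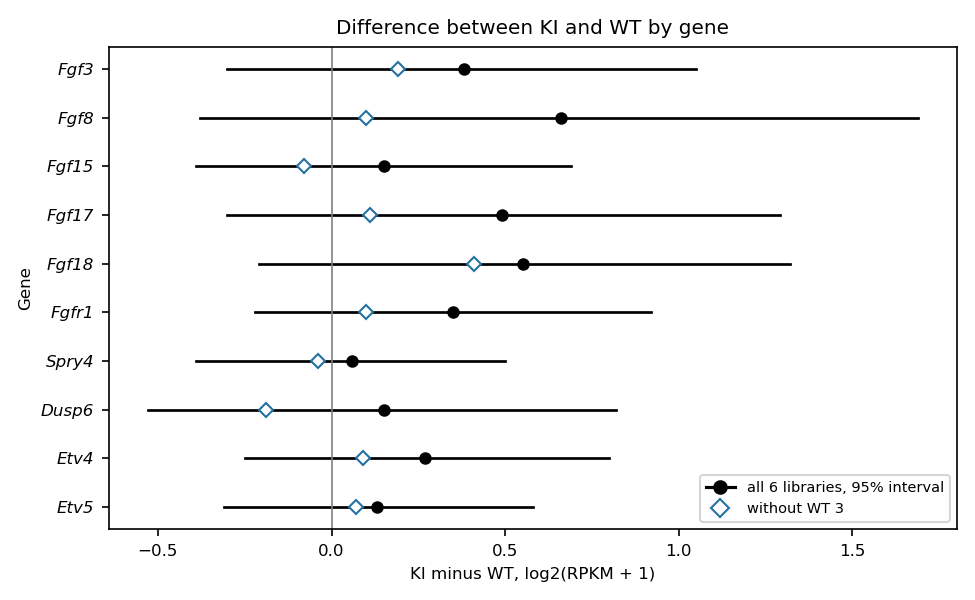
KI minus WT difference of each gene on the log2(RPKM + 1) scale, with filled circles and 95% intervals for all 6 libraries and open diamonds without WT 3. All intervals include 0, and Dusp6 moves from 0.15 to -0.19 without WT 3.

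Across the 10 genes all differences were positive, with a median of 0.31 on the log2 scale against 0.05 over all tested genes, of which 58.8% were positive. This count depended on WT 3. Without that library 7 of the 10 differences were positive, where 36.9% of all tested genes were, with Dusp6, Fgf15 and Spry4 below 0. Between WT 1 and WT 2 on the one side and KI 1 and KI 3 on the other, the 10 differences ran from -0.25 for Dusp6 to 0.25 for Fgf3.

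All 10 genes had their lowest value in WT 3, as did 51.9% of all tested genes. On the log2 scale WT 3 lay below the mean of WT 1 and WT 2 by a median of -0.62 over the 10 genes and -0.33 over all tested genes. The size varied within the family. Fgf8 differed by -1.65, and 3.01% of tested genes had a lower value. Fgf17 differed by -1.14 and Dusp6 by -1.03, with 10.2% and 13.6% of tested genes lower. Etv5 at -0.19 and Spry4 at -0.30 stood above or near the median of all genes. For Fgf8, Fgf15, Fgf17, Fgfr1 and Dusp6 the counting interval in WT 3 lay wholly below those of the other 5 libraries. In RPKM, WT 3 held 0.235 times the mean of WT 1 and WT 2 for Fgf8, 0.479 times for Dusp6 and 0.859 times for Etv5.

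**Figure D3:**
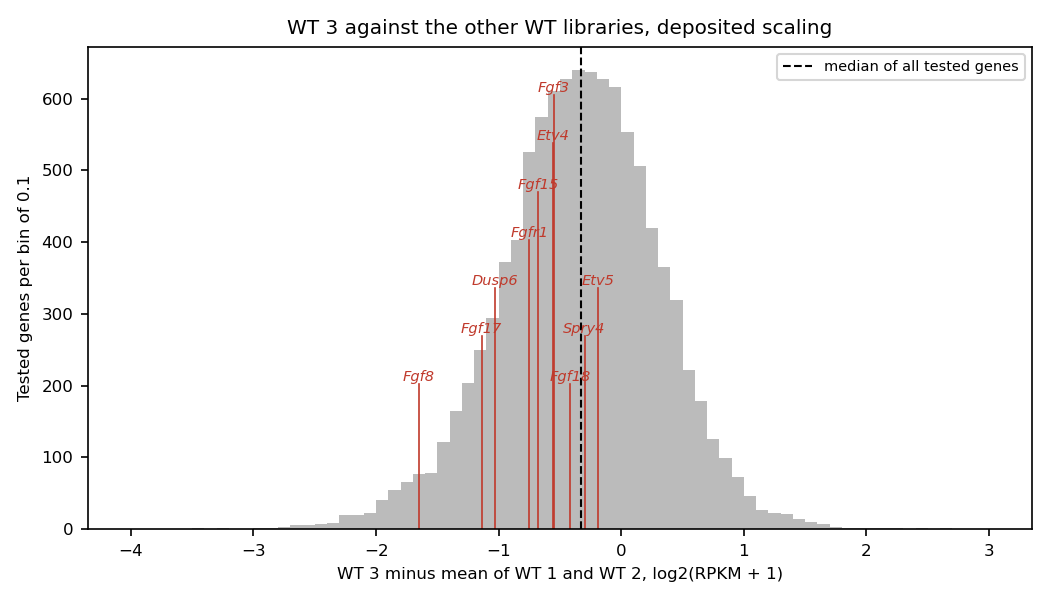
Histogram of WT 3 minus the mean of WT 1 and WT 2 on the log2(RPKM + 1) scale over 10104 tested genes, with red lines at the values of the 10 genes (line heights only separate the names) and a dashed line at the median of all genes. Fgf8 lies at -1.65 and the median of all genes at -0.33.

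The size of the difference in WT 3 depended on the scaling. TMM scaling, which moved the median of all genes in WT 3 from -0.33 to 0.01, left 8 of the 10 genes below the mean of WT 1 and WT 2, as were 49.2% of all tested genes, with a median of -0.36 over the 10, and turned Spry4 to 0.05 and Etv5 to 0.20. WT 3 then remained the lowest library for 7 of the 10 genes and for 33.7% of all tested genes. With quantile normalization WT 3 was the lowest library for 5 of the 10 genes and for 31.3% of all. There 7 of the 10 and 47.3% of all lay below the mean of WT 1 and WT 2, with Fgf18 at 0.09, Spry4 at 0.17 and Etv5 at 0.25 on the other side. Fgf8 was at -1.33 and -1.18 under these scalings and Dusp6 at -0.60 and -0.83.

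Markers of the caudal tissue where Fgf8 is made differed among themselves in WT 3. Over 15 markers of the primitive streak, tail bud and presomitic mesoderm, WT 1, 2 and 3 had a summed log2(RPKM + 1) of 34.3, 34.8 and 32.3, and KI 1, 2 and 3 of 40.6, 30.5 and 38.8. The caudal factor Cdx4 was at 56.8 RPKM in WT 3 and 41.2 and 40.1 in WT 1 and WT 2. Cyp26a1, which breaks down retinoic acid, was at 13.3 in WT 3 and 23.4 in both WT 1 and WT 2. Of 11 tested markers on this list 6 had their lowest value in WT 3, as did 51.9% of all tested genes. Over these 11 the median of WT 3 minus the mean of WT 1 and WT 2 was -0.16 on the log2 scale. It was -0.33 over all tested genes. The part of tissue makeup in the low Fgf8 of WT 3 was not tested.

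By level, the 10 genes ranked Dusp6 (37.0 RPKM over all 6 libraries), Fgf17 (10.7), Fgf15 (8.04), Fgf8 (7.47), Etv5 (7.15), Spry4 (4.62), Fgfr1 (3.46), Fgf3 (2.45), Fgf18 (1.72) and Etv4 (0.892). Dusp6 exceeded Fgf17 in 6 of 6 libraries. Fgf15 exceeded Fgf8 in 4 of 6, and the means of Fgf15, Fgf8 and Etv5 differed by less than their SDs of 1.43, 2.80 and 0.997. Etv5 exceeded Spry4, and Spry4 exceeded Fgfr1, in 6 of 6 libraries. Ranks between genes in RPKM depend on the exon length used. The merged length was 9875 bases for Fgfr1 and 4755 for Spry4, and other lengths could change their order.

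The genes whose pattern over the 6 libraries came nearest to Fgf8 were Slc46a1, Rab1b and Nup62. Likeness was the root mean square difference of centred log2 values, and it was 0.031, 0.033 and 0.044 for these genes, against a median of 0.571 over 10094 genes. Each had its lowest value in WT 3, such as 15.7 RPKM for Rab1b, against 49.2 to 58.3 in the other 5. Guk1, Wdr26 and Prelid1 came nearest to the mean of Spry4, Dusp6, Etv4 and Etv5, at 0.017, 0.019 and 0.024 against a median of 0.242. With 10094 genes compared over only 6 libraries, close matches of this kind describe the libraries and no more.

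Among the other FGF family genes, few reached the minimum for testing and none of those tested was called. Of 17 listed, just Fgf13 and Fgf10 were tested. Fgf13, an intracellular member that is not secreted, was at 3.95 ± 0.26 RPKM in WT and 4.25 ± 0.53 in KI, and Fgf10 at 1.94 ± 0.30 and 1.67 ± 0.37 (SD, n = 3 each). Fgf4 and Fgf5, ligands of the streak and the epiblast that were picked after their values were seen, did not exceed 0.353 and 0.347 RPKM. A response of these 2 ligands to the mutant allele was not measurable at this depth.

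Other receptors and coreceptors gave 0 calls among 10 tested genes. Of their differences 7 were positive, against 58.8% over all tested genes, and the median was 0.12. The heparan sulphate proteoglycan Gpc3 was the most abundant, at 126 ± 10.9 RPKM in WT and 132 ± 16.6 in KI. Sdc4 was at 52.9 ± 20.2 and 44.7 ± 13.8, with 75.9 in WT 3. Flrt3, a membrane protein that binds FGF receptors, was at 44.0 ± 4.98 and 49.0 ± 13.3 (SD, n = 3 each). Of 12 tested heparan sulphate enzymes 0 passed and the median was 0.07. Among them Ugdh was at 29.3 ± 4.88 in WT and 25.6 ± 7.15 in KI, Sulf1, which trims sulphate from heparan sulphate, at 7.32 ± 1.70 and 9.22 ± 1.85, and Hs6st2 at 7.07 ± 1.05 and 6.87 ± 0.34.

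All 9 tested adaptors had a positive difference, as did 58.8% of all tested genes, with a median of 0.17, and 0 passed. Crkl was at 10 ± 4.12 RPKM in WT and 13.2 ± 2.48 in KI, Shc1 at 6.13 ± 2.67 and 7.39 ± 1.1, and Grb2, which links the receptor complex to Ras activation, at 5.88 ± 2.21 and 6.5 ± 0.25 (SD, n = 3 each). WT 3 was the lowest library for 7 of the 9, and for 51.9% of all tested genes. Of 14 genes for Ras proteins, kinases of the cascade and kinases downstream of it, 10 differences were positive and 0 passed. Nras was at 219, 206 and 198 RPKM in WT and 224, 244 and 243 in KI, without overlap. Map2k1 was at 38.9, 39.6 and 17.7 in WT and 40.2, 31.3 and 41.4 in KI, and Mapk3, which encodes ERK1, at 18.8, 16.0 and 5.16 in WT and 23.8, 12.5 and 20.4 in KI.

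Spry2, a Sprouty like Spry4, went the other way in WT 3 under the deposited scaling. It was at 63.1, 60.1 and 192 RPKM in WT 1, 2 and 3 and at 89.1, 110.0 and 48.8 in KI 1, 2 and 3, so that the library with the lowest Spry4 held the most Spry2. Under other scalings Spry4 was not low in WT 3. Against the mean of WT 1 and WT 2 it differed by 0.05 with TMM scaling and 0.17 with quantile normalization. The KI minus WT difference of Spry2 was -0.20 (SE 0.49). In the list of other inhibitors, 10 of 14 tested differences were positive, against 58.8% over all tested genes, and 0 passed. Rasa1, a Ras GTPase activator, was at 10.9 ± 1.41 in WT and 13.1 ± 2.54 in KI, and Dusp7 at 8.86 ± 1.94 and 9.33 ± 3.15 (SD, n = 3 each). Of 9 other ETS factors 5 differences were positive and 0 passed. Ets1 was at 24.6 ± 1.87 and 23.1 ± 4.19, Gabpa at 7.77 ± 1.47 and 7.21 ± 0.81, and Etv2, a factor of blood and vessel precursors, at 13.4 ± 1.93 in WT and 20.2, 6.74 and 26.7 in KI 1, 2 and 3.

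**Figure D4:**
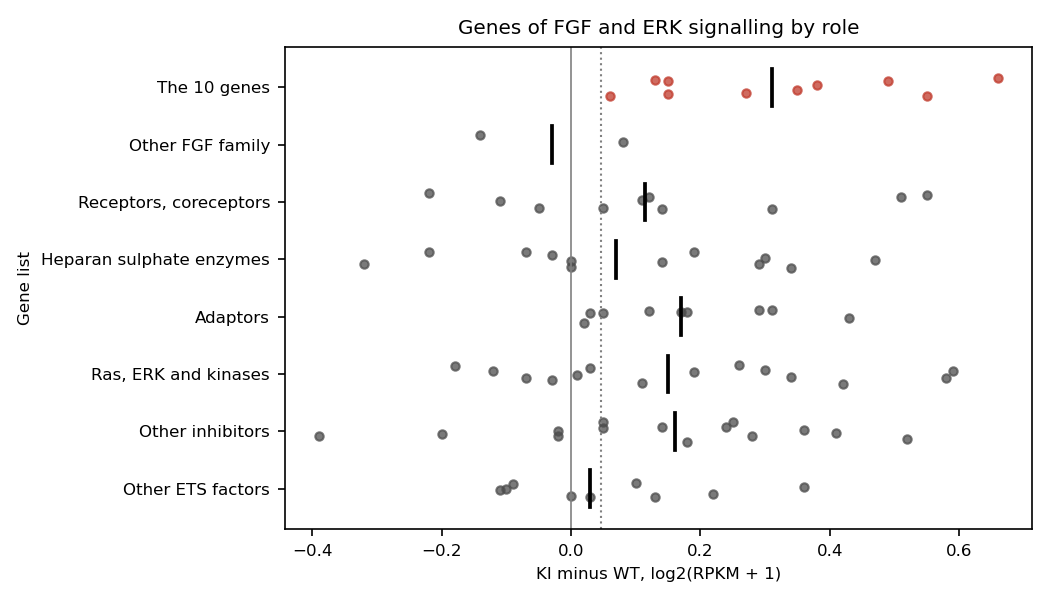
KI minus WT differences on the log2(RPKM + 1) scale for the 10 genes (red) and for the tested genes of the other lists by role (grey), with a black bar at each list's median, a solid line at 0 and a dotted line at the median of all tested genes. The medians run from -0.03 for the other FGF family genes to 0.31 for the 10 genes.

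Over these lists 70 genes were tested, 0 passed and 0 had an unadjusted p under 0.05, against 1.20% of all tested genes. The median difference was 0.12, and 49 of the 70 differences were positive (70%, against 58.8% of all tested genes). Without WT 3 the share over all tested genes was 36.9%, and the lists were not counted again there. Groups did not overlap for 5 of the 70 (7.14%, against 6.54% of all genes), namely Nras, Mapkapk2, Rps6ka1 and Spred2 with KI higher and Dusp9 with KI lower, named because their groups were separate. WT 3 was the lowest library for 43 of the 70 (61.4%), against 51.9% of all genes.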

How the data were processed

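Per the labels' protocols, RNA from 3 WT and 3 KI embryo samples was captured on oligo(dT) beads and made into libraries with a SMARTER mRNA-seq kit. Per the submitters' processing notes the build was GRCm39. No source used here named the aligner, counting tool or annotation. The labels mention raw counts, but the values the authors deposited behave as RPKM: multiplied by merged exon length in GENCODE M21 (GRCm38, used for lengths and chromosome names only), 97.9% to 98.0% of the values under 2000 reads in each library were whole multiples of a single step within 0.05. That step gave the depths and the reads behind each value, and it is open whether a read is a single read or a read pair. Of rows sharing a symbol (20 symbols), the one with the highest mean entered.

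The planned replacement for a count test was used: log2(RPKM + 1) was fitted with limma 3.58.1 (R 4.3.3), using a trended and robust prior and no covariate, for genes that reached 1 RPKM in 3 or more libraries. All 10 genes passed this minimum. The threshold was a Benjamini-Hochberg adjusted p under 0.05 over all tested genes. The fit was tested on simulated data. Alternatives covered the pseudocount, the filter, the scaling, a replicate block, limma-voom on the recovered reads, library weights, a Y-linked covariate and left-out libraries.

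Named genes were the 10 genes and, from each list, the highest tested by mean RPKM (3 per pathway list, 2 per marker list) and defining markers at 0. Also named were genes nearest in pattern, the untested epiblast markers, pathway genes with separate groups, and others said to be picked after their values were seen. The 10 genes and the lists were chosen with earlier results of these data known. No comparison was made within batches, since the labels give none.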

Additional observations from a re-analysis of the deposited data

How the results depend on the processing

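With 3 libraries per genotype, 2 of which stood apart, differences such as that of Fgf8 had wide intervals, and the reads of Fgf18 and Etv4 limited those genes further. No alternative called any of the 10 genes it tested (8 of them with 1 RPKM required in all 6 libraries, without Fgf18 and Etv4), and 0 genes overall were called except with library weights (93, 35 higher and 58 lower in KI; the weight estimate stopped before convergence) and without both WT 3 and KI 2 (41, 18 higher and 23 lower). Leaving out 1 library at a time kept 0 calls. The count of the 10 genes with a higher KI value, an alternative added after seeing the data, was 6 with library weights (46.9% of all genes), 7 without WT 3, 7 without both WT 3 and KI 2 (44.3%), 8 with a Y-linked covariate (48.9%), 9 with TMM scaling, 9 with quantile normalization (49.7%), and 7 to 10 over the single left-out libraries, where 10 were higher with all libraries.

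Directions turned as follows, with the cause not tested. With library weights Dusp6 was at -0.21, Fgf15 at -0.09, Fgf18 at -0.12 and Fgf3 at -0.13. Without both WT 3 and KI 2 Dusp6 was at -0.25, Fgf15 at -0.07 and Fgf17 at -0.02. With a Y-linked covariate Etv4 was at -0.02 and Spry4 at -0.12. Spry4 was at -0.02 with TMM scaling and with quantile normalization. Over single left-out libraries Dusp6 ran from -0.19 to 0.33, Fgf15 from -0.08 to 0.26 and Spry4 from -0.04 to 0.15. TMM scaling lowered the share of all genes with a higher KI value from 58.8% to 45.6%.

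The replicate block called 0 genes and 0 of the 10. Libraries sharing a number deviated from their group means with correlations of 0.12, -0.05 and 0.01, so the numbers were not taken to pair them, and not every library correlated best with its own number.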
